A study of Mus musculus with 6 samples.

Results

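Long intergenic noncoding RNAs (lincRNAs) are transcripts that lie between protein-coding genes and have no recognised open reading frame. They were examined here in gastrocnemius, the main calf muscle, of male C57BL/6 mice aged 20 to 24 weeks that ate a normal or a high phosphate diet for 12 weeks. The members are the genes whose deposited type is lincRNA and whose counts reached 1 CPM (the count scaled by the library total) in at least 3 of the 6 libraries, with the imprinted RNAs H19, Meg3 and Rian left out. They were thus chosen by their measured counts, without regard to diet. Of 47967 genes in the deposited table, 3897 had the type lincRNA and 246 of these reached the threshold. H19 and Meg3 were then removed, and Rian has another type, which left 244 members.

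The normal phosphate diet (NP) held 0.6% inorganic and 0.9% total phosphate, and the high phosphate diet (HP) held 2.0% inorganic and 2.3% total phosphate. Magnesium (0.3%), calcium (1.9%), potassium (1.8%) and sodium (0.9%) were equal in both. RNA-seq of total RNA gave 3 libraries per diet. Whether these came from separate mice is not stated in the labels, and a p-value measures the spread between these libraries, which may be technical. In whole muscle, fewer cells of a type and less RNA per cell cannot be told apart.

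LincRNAs are often transcribed at low levels, are frequently restricted to a tissue, and act either through the RNA itself or through the act of transcription near other genes. Some hold chromatin or nuclear bodies together, some carry microRNAs or small nucleolar RNAs in their introns or exons, and some encode short peptides that were missed when the gene was first annotated. In skeletal muscle they are known as regulators of fibre type and of myoblast differentiation.

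The libraries held 21856006 to 27474251 gene counts, so that 1 CPM stood for 21.9 to 27.5 counts. Values below are CPM after TMM normalization, a scaling of each library that is meant to keep most genes level; its factors were 1.10 to 1.29 on the normal and 0.795 to 0.882 on the high phosphate diet. Markers of the labelled tissue were abundant: the summed level of 8 skeletal muscle fibre genes was 50709 to 72934 CPM on the normal and 144902 to 183600 CPM on the high phosphate diet. The second NP library stood apart from the other NP libraries, at -7.96 on the first principal component of the members' log2 CPM (68.4% of the variance) against -4.51 and -4.90, while the HP libraries lay at 5.59 to 6.17. The second HP library stood apart on the second component (11% of the variance), at 4.71.

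The members took up a small part of the RNA. Their counts made up 0.520%, 0.488% and 0.555% of the 3 NP libraries and 0.486%, 0.413% and 0.480% of the 3 HP libraries. In these shares of the library totals, which do not use TMM, the HP libraries lay below the NP libraries, though by a narrow margin. The closest libraries of the 2 diets, the second NP (95% Wilson interval 0.485% to 0.491%) and the first HP (0.483% to 0.488%), did not differ beyond counting error. Neat1, 1700020I14Rik and Malat1 supplied 59.5% to 66.2% of all member counts. Their log2 changes (high over normal phosphate) were 0.24, 0.38 and 0.20 with TMM but -0.24, -0.085 and -0.27 by library size alone. The direction of the members' total thus cannot be read from these shares alone. The median member had a mean of 2.62 CPM, 43 members reached a mean of 10 CPM and 6 reached 100. The rule set the lower end: F420014N23Rik (1.01 CPM before TMM in the library that decided its entry), 2010015M23Rik (1.02) and Gm26823 (1.05) were just inside it, and Gm17249 (0.970), Gm26510 (0.970) and Gm44837 (0.946) just outside.

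Most members have names that state no function, though some of these, such as 1700020I14Rik and 2310065F04Rik, have been studied. Of the 244, 95 carry a predicted gene name (Gm and a number) and 106 a RIKEN clone name. In the GENCODE M21 annotation of GRCm38, 238 were found by identifier, with a median exonic length of 2460 bases and 32 that have a single exon in every transcript. Of these, 203 are lincRNAs there, 15 antisense, 10 bidirectional promoter RNAs, 7 processed transcripts, 2 pseudogenes and 1 protein-coding gene. Exonic bases were shared with another gene by 86 members, 71 of them on the opposite strand, where reads cannot be told apart since the strand setting of the counting is not given. RefSeq lists 6 of the 166 members found in it as protein coding: 1810058I24Rik, C330006A16Rik, Lsmem2, Gm6712, Gm22 and 6330403K07Rik.

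All 244 members were tested in a fit over 15347 genes, and 84 differed between the diets: 39 rose and 45 fell on high phosphate (edgeR quasi-likelihood test, Benjamini-Hochberg adjusted p under 0.05). That is 34.4% of the members, beside 49.3% of all genes tested, with 16.0% against 23.0% higher and 18.4% against 26.3% lower. Without TMM, scaled by library size alone, the split was 14 higher and 108 lower, beside 5.72% higher and 51.4% lower of all genes tested. The median change then moved from -0.016 to -0.49 (log2) over all genes and from -0.035 to -0.51 over the members. Under a mean of 2 CPM the share called was 32.6% of 95 members, near the 36.1% of all genes. It was lower than among all genes above that: 32.1% of 106 against 47.7% from 2 to under 10 CPM, and 44.2% of 43 against 54.2% from 10 CPM. The member rule favours calls among members that reached 1 CPM in 1 diet only, of which 22 of 35 (NP) and 2 of 2 (HP) were called. The members' shares are thus not free of the rule. Standard errors (log2) had a median of 0.25 among the members and 0.16 among all genes, and the part of this in the lower share was not tested.

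**Figure D1:**
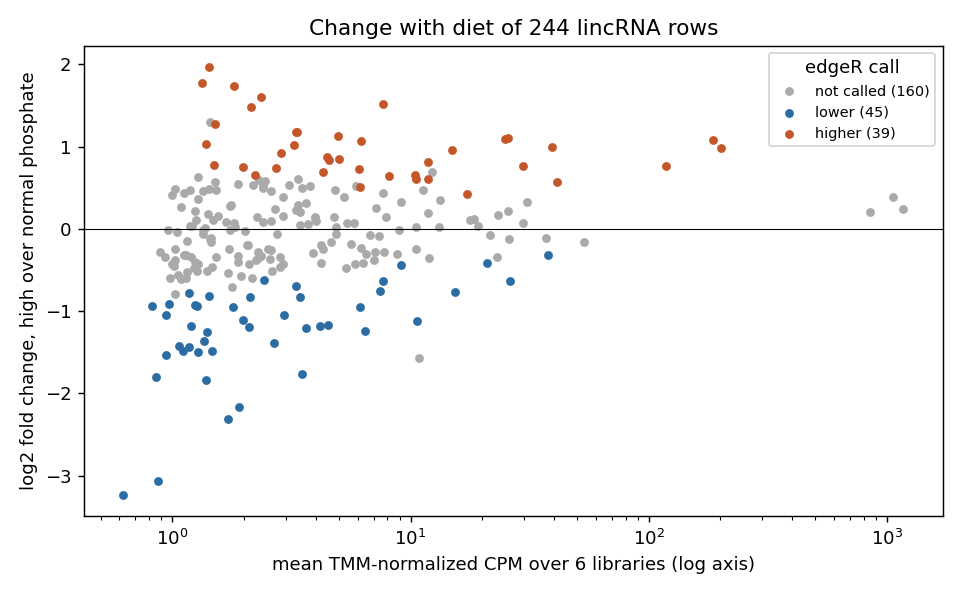
Log2 fold change (high over normal phosphate) of each of the 244 members against its mean TMM-normalized CPM over the 6 libraries on a log axis; orange points were called higher (39), blue lower (45) and grey not called (160) by edgeR. The largest decreases lie at the left, under a mean of 2 CPM, and the 3 members near 1000 CPM are not called.

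The changes ranged from -3.23 to 1.96 on the log2 scale, with the middle 50% of the members between -0.44 and 0.44, against -0.59 and 0.37 for all genes. At least 2-fold higher and called were 16 members (6.56%, beside 4.47% of all genes), and at least 2-fold lower and called were 26 (10.7%, beside 13.5%). The values of the 2 diets did not overlap for 119 members (48.8%, beside 62.4% of all genes), of which 83 were called. C130083M11Rik, named here because it was the single called member with overlapping diets, had 3.79, 3.01 and 3.0 CPM on the normal and 6.09, 3.72 and 6.02 CPM on the high phosphate diet. Its call (0.69 ± 0.23) was lost without the second NP (0.64), the third NP (0.63), the first HP (0.59) or the third HP (0.60) library, by library size alone (0.22) and from FPKM (0.16).

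The member rule itself favours some differences. A member that reached 1 CPM in the libraries of 1 diet only had to differ, and this was so for 35 members of the normal diet, of which 22 were called lower, and for 2 of the high phosphate diet, Gm14319 and Gm9484, both called higher. Among the 165 members at 1 CPM in all 6 libraries, 34 were called higher and 18 lower, with a median log2 fold change of 0.10. That is 31.5% called, beside 49.3% of all genes tested (23.0% higher and 26.3% lower). This set leans the other way, since 1 CPM before TMM stands for a higher TMM-normalized level in the HP libraries. Requiring it in all 6 drops more members that are low on high phosphate, so the split is partly set by the rule. The number of members at 1 CPM was 236 or 237 in the NP libraries and 186 to 196 in the HP libraries; these counts use the library totals without TMM.

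Neat1, the RNA scaffold of nuclear paraspeckles, was the most abundant member by counts (chr19:5824708-5845478, minus strand). It stood at 1201, 941 and 1082 CPM in the 3 NP libraries and at 1746, 946 and 1118 CPM in the 3 HP libraries. The diets overlapped, with the first HP library far above the rest. The log2 fold change was 0.24 ± 0.24 (SE; edgeR adjusted p = 0.434), and it was below 0 by library size alone (-0.24), without the first HP library (-0.046) and from FPKM (-0.31).

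1700020I14Rik, the mouse Cyrano RNA, which is known for a conserved site that pairs with miR-7, lies at chr2:119594297-119607502 on the plus strand. Its values were 985, 720.1 and 1048 CPM on the normal diet and 1305, 1106 and 1177 CPM on high phosphate. Each HP library was above each NP library, yet the difference was not called (0.38 ± 0.19, edgeR adjusted p = 0.128). DESeq2 called it (adjusted p = 0.0361, the lowest of 15 alternatives, which reached 0.606), and by library size alone its sign turned (-0.085). From log2(FPKM + 1) it was 0.69, which limma did not call (adjusted p = 0.0590).

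Malat1, a nuclear speckle RNA found in most cells (chr19:5795690-5802672, minus strand), had 783, 663 and 913 CPM on the normal diet and 999.7, 771 and 947 CPM on high phosphate. The diets overlapped and the difference was not called (0.20 ± 0.19, edgeR adjusted p = 0.389). By library size alone it was -0.27, and from log2(FPKM + 1) it was -0.68, where limma gave an adjusted p of 0.0364 within a range of 0.0314 to 0.652 over the alternatives. The direction for Malat1 therefore depended on the scaling of the counts and on whether counts or FPKM were used.

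Prr33, a gene named for a proline-rich protein and typed here as a lincRNA, had the highest CPM among the members that rose (chr7:142491074-142506771, minus strand). It stood at 137, 109 and 160.2 CPM in the NP libraries and at 289, 263 and 252 CPM in the HP libraries, with no overlap. Its level was 135 ± 25.6 against 268 ± 18.8 CPM (SD, n = 3 per diet), a log2 difference of 0.98 ± 0.16 that edgeR called (adjusted p = 0.00154) and that was called in all 15 alternatives, at 0.51 by library size alone. Its gene body overlaps that of Tnnt3, fast skeletal muscle troponin T, on the opposite strand with no exonic base in common. Tnnt3 rose by 1.12 ± 0.26 on the log2 scale, from 13353 to 28974 CPM, and the part of Tnnt3 reads in the Prr33 value was not tested.

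2310065F04Rik, known as linc-MYH, a lincRNA of fast muscle fibres that lies in the cluster of fast myosin heavy chain genes (chr11:67112461-67120080, minus strand), also rose. It had 144, 65.8 and 147 CPM on the normal diet and 182, 230.1 and 343 CPM on high phosphate. The lowest HP library was above the highest NP library, but the second NP library and the third HP library lay far from the others. The log2 difference was 1.08 ± 0.34 (edgeR adjusted p = 0.0323). The call was lost without the second NP library (0.79), the second HP library (1.16) or the third HP library (0.81), by library size alone (0.65), with no filter on low counts (1.09) and from FPKM (0.95), always with the same sign. Of the myosin heavy chains of that cluster, Myh4 rose by 1.66 ± 0.31, Myh8 by 1.54 ± 0.22, Myh13 by 1.98 ± 0.30 and Myh2 by 0.80 ± 0.25. Myh1 (0.58 ± 0.30) and the embryonic Myh3 (-1.96 ± 0.69), the protein-coding gene nearest to linc-MYH, were not called.

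The start regions of these 2 members, the highest in CPM among those that rose, are shown as the 250 bases before and 50 bases after the RefSeq start (GRCm38.p6, minus strand, 5′ to 3′). Capitals mark CAGCTG, an E-box of the kind that myogenic factors bind. They span chr7:142506722-142507021 for Prr33 and chr11:67120031-67120330 for linc-MYH.
Prr33: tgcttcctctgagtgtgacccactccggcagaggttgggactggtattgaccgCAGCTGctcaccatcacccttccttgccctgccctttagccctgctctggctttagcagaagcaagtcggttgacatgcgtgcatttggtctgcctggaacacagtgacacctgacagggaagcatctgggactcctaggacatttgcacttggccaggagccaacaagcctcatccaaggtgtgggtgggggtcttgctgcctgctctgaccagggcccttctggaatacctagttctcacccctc
2310065F04Rik: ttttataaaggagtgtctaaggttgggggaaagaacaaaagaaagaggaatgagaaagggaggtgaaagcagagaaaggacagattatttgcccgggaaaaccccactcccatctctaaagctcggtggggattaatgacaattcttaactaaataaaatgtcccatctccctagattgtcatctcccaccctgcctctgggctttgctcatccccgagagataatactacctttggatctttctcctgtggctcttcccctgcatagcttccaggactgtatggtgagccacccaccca
The Prr33 window held the motif once and the linc-MYH window did not hold it. Among 155 promoter entries of 133 members, 15.5% held CAGCTG, beside 16.3% of 32851 RefSeq promoters of the same length; since CAGCTG reads the same on both strands, 1 search covers both. It was present in 2 of 24 entries of members that rose, 8 of 25 of members that fell and 14 of 106 of members not called. GTAAACA, a forkhead (FOXO) motif, stood in 3.23% of member entries and 3.65% of all, and TATTTATA, a MEF2-type motif, in 1.29% and 1.70%, on either strand.

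2310040G24Rik, a transcript named by its RIKEN clone (chr6:86483376-86488227, minus strand), had 98.8, 64.9 and 98.6 CPM on the normal diet and 165, 114 and 166 CPM on high phosphate. The diets did not overlap, with the second library lowest in each. The log2 difference of 0.77 ± 0.20 was called (edgeR adjusted p = 0.0131) but was 0.30 and not called by library size alone and from FPKM. Gm28933, absent from GENCODE M21, had 33.5, 31.5 and 34.2 against 56.7, 44.3 and 46.1 CPM. It rose by 0.57 ± 0.12 (edgeR adjusted p = 0.00392). By library size alone it was 0.088 and from FPKM -0.0034, neither of them called. Its direction thus held across scalings of the counts but not from FPKM. 1810058I24Rik, which RefSeq lists as protein coding, had 62.8, 55.7 and 51.7 against 46.6, 56.6 and 48.9 CPM, which overlap, and its difference of -0.16 ± 0.12 missed the threshold (edgeR adjusted p = 0.264).

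**Figure D2:**
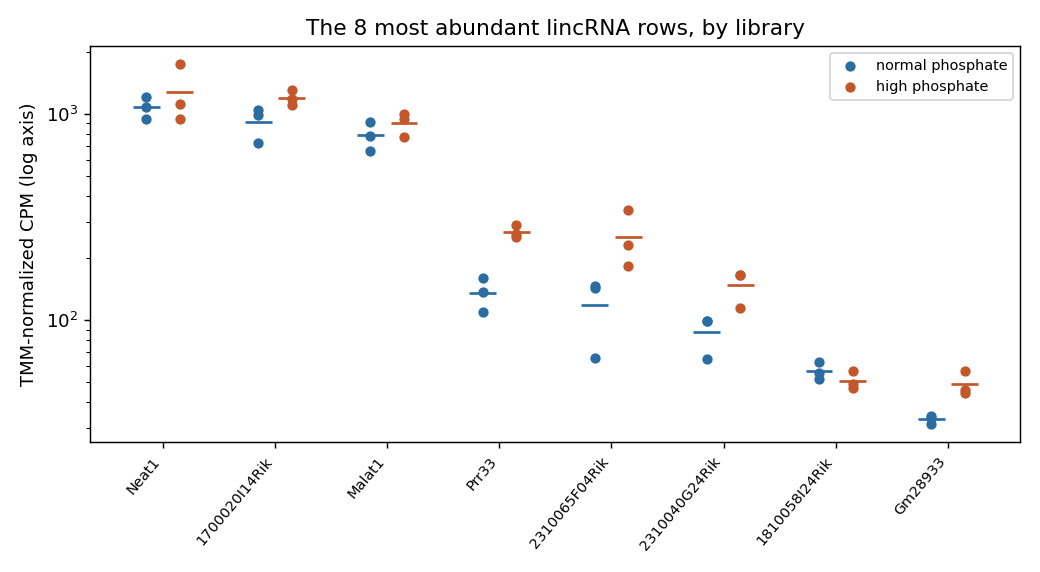
TMM-normalized CPM (log axis) of the 8 most abundant members in each library; blue points are the 3 normal and orange points the 3 high phosphate libraries, and bars are means. The orange points of Prr33 (252 to 289) lie wholly above its blue points (109 to 160.2), whereas those of Neat1, Malat1 and 1810058I24Rik overlap.

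Counts favour long transcripts, so the order of levels between genes was read per length, from the FPKM values that the authors deposited. By mean FPKM over the 6 libraries, Malat1 (269) and 1700020I14Rik (243) led, followed by 2310040G24Rik (121), Gm12319 (76.9), linc-MYH (64.1), Prr33 (60.1) and Neat1 (56.0). Neat1 is the longest member, with 20771 exonic bases. Its place depended on the diet: it had a mean of 61.4 FPKM on the normal diet, above Prr33 (48.8) and linc-MYH (42.8), and of 50.5 FPKM on high phosphate, below both (71.3 and 85.4). Gm12319, named here for that position after its values were seen, rose from 31.4, 17.4 and 30.1 to 55.8, 49.1 and 51.9 CPM (0.99 ± 0.20, edgeR adjusted p = 0.00463).

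The largest increases lay among weakly expressed members. Gm14319 (chr2:167858585-167862542) had 0.843, 0.425 and 0.476 CPM on the normal and 1.6, 3.41 and 1.82 CPM on the high phosphate diet, a log2 difference of 1.96 ± 0.40 (edgeR adjusted p = 0.00376). Gm9484 (chr5:96996206-96997364) had 0.613, 0.673 and 0.513 against 1.79, 1.99 and 2.44 CPM, a difference of 1.78 ± 0.27 (edgeR adjusted p = 0.00119). Both passed the member threshold through the HP libraries only, so that a difference was built into their choice.

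Gm44421, a single-exon transcript at chr6:90478466-90479686, was the strongest of the increases above a mean of 5 CPM. It had 3.56, 3.40 and 4.94 CPM on the normal diet and 12.0, 12.2 and 9.81 CPM on high phosphate, a log2 difference of 1.51 ± 0.18 (edgeR adjusted p = 0.000595) that was called in all 15 alternatives. The HP values were well separated from the NP values. It lies 3228 bases from Klf15, on the same strand; Klf15, a transcription factor known for glucocorticoid and fasting responses in muscle, rose by 1.38 ± 0.32. Whether Gm44421 reads belong to an extended Klf15 transcript was not tested.

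The other members among the 8 largest increases were Gm26885 (1.74 ± 0.33), RP23-116P5.3 (1.6 ± 0.23), Gm5091 (1.49 ± 0.27), 2810032G03Rik (1.27 ± 0.27) and Gm17586 (1.18 ± 0.24). Their means were 0.837 to 2.02 CPM on the normal and 2.13 to 4.59 CPM on the high phosphate diet, and the diets did not overlap for any of the 5. Gm26885 is antisense in GENCODE M21 and shares 42.2% of its exonic bases with genes on the opposite strand, Pim1 among them. Pim1 was not called (0.31 ± 0.16), and reads of the 2 genes cannot be told apart there. From log2(FPKM + 1), Gm14319 (1.11), Gm26885 (0.21) and 2810032G03Rik (0.33) were no longer called.

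Gm28286 showed the largest decrease (chr1:154027363-154034301). It had 1.26, 1.03 and 1.10 CPM in the NP libraries and 0.0916, 0.255 and 0 CPM in the HP libraries, with no overlap and no count in the third HP library. The fitted log2 difference was -3.23 ± 0.57 (edgeR adjusted p = 0.00214), and without single libraries it ranged from -4.39 to -2.68. Gm454 (chr5:138203609-138207308) fell from 1.61, 1.28 and 1.79 CPM to 0.137, 0.204 and 0.208 CPM, a log2 difference of -3.07 ± 0.35 (edgeR adjusted p = 0.000472). Of its sequence stretches of 50 bases, 14.1% occur elsewhere in the annotated transcripts, so its reads are partly uncertain. Both passed the member threshold through the NP libraries only, so that a decrease was built into their choice, as it was for Mirg, AI504432, Gm22, 6330403K07Rik and BC043934. Of the 8 largest decreases, AI662270 alone reached 1 CPM in all 6 libraries.

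AI662270, which lies 8422 bases from the Schlafen gene Slfn3, had 5.36, 6.52 and 4.39 CPM on the normal diet and 1.92, 1.63 and 1.19 CPM on high phosphate. Its difference of -1.77 ± 0.25 was called in all 15 alternatives (edgeR adjusted p = 0.000899), and 14.0% of its stretches of 50 bases occur elsewhere. AI504432, 1434 bases from the potassium channel gene Kcna3, fell from 1.92, 3.90 and 3.55 to 0.687, 0.459 and 0.935 CPM (-2.17 ± 0.36). The other large decreases were those of Gm22 (-1.84 ± 0.37), 6330403K07Rik (-1.80 ± 0.46) and BC043934 (-1.53 ± 0.39), at means of 1.33 to 2.18 CPM on the normal diet. Gm22 and 6330403K07Rik are protein coding in RefSeq, and the call for 6330403K07Rik was lost without the first HP library (-1.59).

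**Figure D3:**
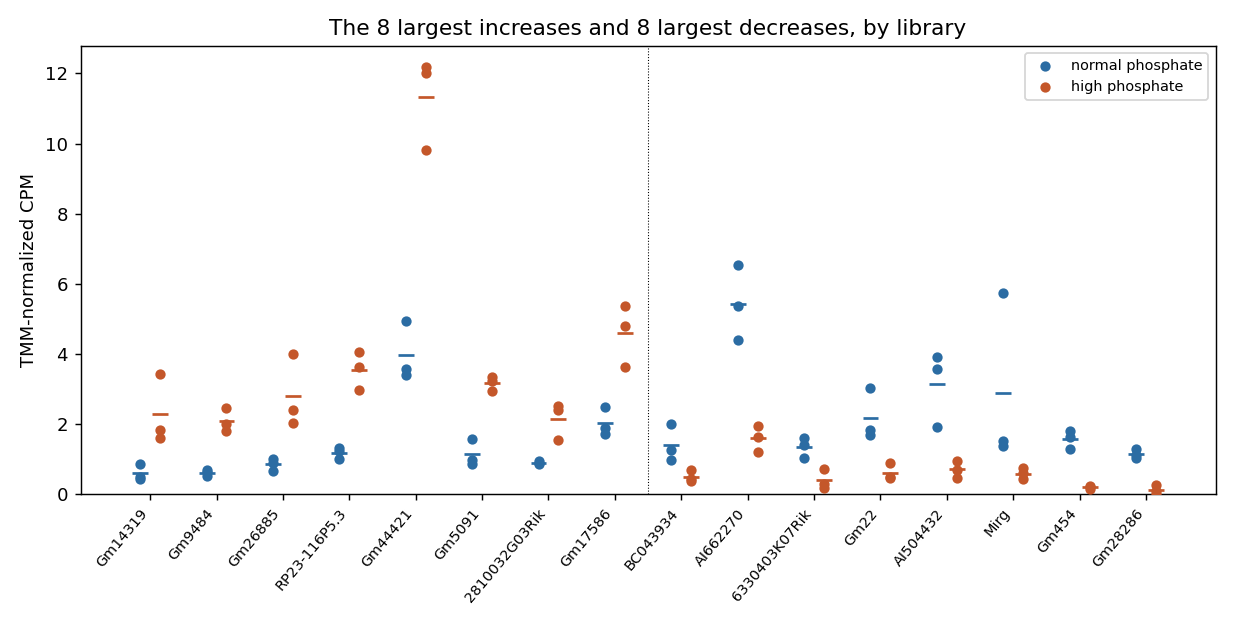
TMM-normalized CPM by library of the 8 largest increases (left of the dotted line) and 8 largest decreases (right) among called members whose diets do not overlap; blue points are normal and orange points high phosphate libraries, with bars at the means. Gm44421 reaches 9.81 to 12.2 on high phosphate, and the second NP library sets the high value of Mirg (5.74).

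Mirg, a host transcript of microRNAs in the imprinted region that also holds Meg3 and Rian (chr12:109729764-109749460, plus strand), came next after Gm28286 and Gm454 among the decreases. It had 1.49, 5.74 and 1.35 CPM in the NP libraries and 0.596, 0.408 and 0.727 CPM in the HP libraries. Only the NP libraries took it past the member threshold, so that a decrease was built into its choice. The second NP library was far above the others. The log2 difference was -2.31 ± 0.64 (edgeR adjusted p = 0.0179). It was -1.30 and still called without the second NP library, and the call was lost without the first (-2.32) or the second (-2.10) HP library and with no filter on low counts (-2.28). Meg3 (-1.66 ± 0.48) and Rian (-2.13 ± 0.48), which are not members, were also called lower and were likewise highest in the second NP library.

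The Mirg transcript spans 14 RefSeq microRNA genes with 26 mature sequences. The counts measure the host RNA, not the mature microRNAs. A pair of them that share a seed (bases 2 to 8, in capitals) and 2 others that lie within its span are shown from RefSeq (GRCm38.p6). They are examples of what is annotated there, and their place in exons or introns was not examined.
mmu-miR-453: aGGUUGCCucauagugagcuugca
mmu-miR-496a-5p: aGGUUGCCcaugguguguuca
mmu-miR-134-5p: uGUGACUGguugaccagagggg
mmu-miR-410-3p: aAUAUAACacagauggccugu
The first and the second share the seed GGUUGCC.

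Gm28653 is the locus of linc-MD1, a muscle differentiation RNA that hosts the muscle microRNAs miR-206 and miR-133b (chr1:20669882-20684298, plus strand). It had 14.4, 24.4 and 9.85 CPM on the normal diet and 10.2, 2.34 and 3.69 CPM on high phosphate. The first HP library lay within the NP range, so that the diets overlapped. The log2 difference of -1.57 ± 0.59 was not called (edgeR adjusted p = 0.0694), with adjusted p from 0.00782 to 0.226 over the alternatives. It was called in 5 of 15 of them, among them the fit without the first HP library (-2.41). Its microRNAs are shown because they define the locus.
mmu-miR-206-3p: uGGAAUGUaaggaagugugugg
mmu-miR-133b-3p: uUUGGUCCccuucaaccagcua
2900076A07Rik, which holds 1 microRNA gene, rose from 18.0, 11.5 and 18.5 to 38.6, 29.7 and 33.9 CPM (1.09 ± 0.19, edgeR adjusted p = 0.00198), but was not called from FPKM (0.65). It was named after its values were seen, as the single host of a microRNA among the members that rose.
mmu-miR-1839-5p: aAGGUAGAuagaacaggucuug

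Of 10 tested microRNA host transcripts on a list that holds members and other genes, 0 were called higher and 6 were called lower (over all genes tested, 23.0% were higher and 26.3% lower); their median log2 fold change was -0.47, beside -0.016 over all genes. The list leaves out other members that hold microRNA genes. Of those, 2900076A07Rik was called higher, and Gm28653, Snhg20, Ftx, 6720427I07Rik and E130102H24Rik were not called. On the list, Mirg and Mir17hg, host of the miR-17 to miR-92 cluster, are the members, and Mir17hg was not called (-0.25 ± 0.21). The others on the list called lower were Mir142hg (-3.07 ± 0.75) and Mir155hg (-1.22 ± 0.36), both hosts of microRNAs known from blood and immune cells, Dnm3os (-1.76 ± 0.28), Mir99ahg (-0.56 ± 0.15) and Dleu2 (-0.38 ± 0.12). The first of these rest on few counts. Mir142hg had 0.460, 2.83 and 2.16 CPM on the normal and 0.367, 0.102 and 0.156 CPM on the high phosphate diet. Mir155hg had 0.651, 0.709 and 0.732 against 0.275, 0.408 and 0.208 CPM. The B cell markers (5 of 5 called lower) summed to 9.0 to 56.2 CPM on the normal and 0.962 to 1.83 CPM on the high phosphate diet, and the T cell markers (5 of 5 lower) to 7.28 to 25.8 and 0.571 to 1.32 CPM. Their part in these decreases was not tested.

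Small nucleolar RNA (snoRNA) host genes carry, in their introns, the guides that modify ribosomal RNA. Of 17 tested, 4 were called higher and 4 lower, near the 23.0% and 26.3% of all genes tested, and the median log2 fold change was 0.11. The 6 members among them split: Snhg18 fell, Snhg6 rose, and Dancr (-0.58 ± 0.25), Snhg20 (-0.30 ± 0.14), Snhg12 (0.25 ± 0.22) and Epb41l4aos (0.47 ± 0.21) were not called. Epb41l4aos was called without the first HP library (0.64). Of the hosts that are not members, Zfas1 (0.55 ± 0.14), Snhg5 (0.45 ± 0.12) and Gas5 (0.38 ± 0.10) were higher, and Snhg11 (-1.68 ± 0.27), Snhg15 (-0.71 ± 0.24) and Snhg17 (-0.52 ± 0.17) lower.

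Snhg18 (chr15:32240565-32244662, minus strand) had 13.5, 17.4 and 12.8 CPM on the normal diet and 5.82, 6.22 and 8.15 CPM on high phosphate. The diets were well apart, and the difference of -1.12 ± 0.18 was called in all 15 alternatives (edgeR adjusted p = 0.0014). Snhg6 had 16.3, 12.0 and 15.6 against 16.7, 20.9 and 21.6 CPM, where the first HP library was barely above the first NP library. It rose by 0.43 ± 0.15 (edgeR adjusted p = 0.0407), but by library size alone (-0.030) and from FPKM (-0.0053) the sign turned. The Snhg6 call was also lost without the second NP (0.30), the third NP (0.47), the second HP (0.40) or the third HP (0.37) library and with the replicate number as a block (0.43, edgeR adjusted p = 0.0539, within a range of 0.0126 to 0.979 over the alternatives).

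On the list of nuclear and chromatin RNAs, 0 of 7 members were called by edgeR, beside 34.4% of all members and 49.3% of all genes tested. Besides Neat1 and Malat1, these were Jpx (-0.38 ± 0.25) and Ftx (-0.24 ± 0.24), both from the X-inactivation centre, Hotair from the HoxC cluster (-0.34 ± 0.39), Miat (-0.33 ± 0.27) and Pvt1, the neighbour of Myc (0.10 ± 0.26). Their values on the 2 diets overlapped in each case. With edgeR's adjusted p these 7 ran from 0.230 to 0.777, and the sign of Pvt1 turned by library size alone (-0.38), that of Hotair without the second HP library (0.035). Of 4 other genes on that list, Norad (2900097C17Rik) was called higher (0.60 ± 0.13) and Firre (-0.42 ± 0.12) and Kcnq1ot1 (-0.77 ± 0.18) lower.

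Dubr, a lincRNA that promotes myoblast differentiation, had 9.69, 10.9 and 10.9 CPM on the normal and 6.37, 8.81 and 8.15 CPM on the high phosphate diet. It did not overlap between the diets and fell by 0.43 ± 0.15 (edgeR adjusted p = 0.0406). That call stood at the edge of the threshold: it was lost without the first NP (-0.48), the second NP (-0.41), the third NP (-0.41), the first HP (-0.29) or the third HP (-0.45) library, with DESeq2 (-0.42), with no filter on low counts (-0.42) and from FPKM (-0.77). It was called in 6 of 15 alternatives. Of 5 muscle transcripts tested, 2 were called higher and 2 lower, beside 23.0% and 26.3% of all genes tested. Higher were linc-MYH, called in 8 of 15 alternatives, and Mrln (myoregulin, an inhibitor of the calcium pump SERCA, 0.88 ± 0.23). Lower were Dubr and Gm34302 (-1.62 ± 0.30).

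**Figure D4:**
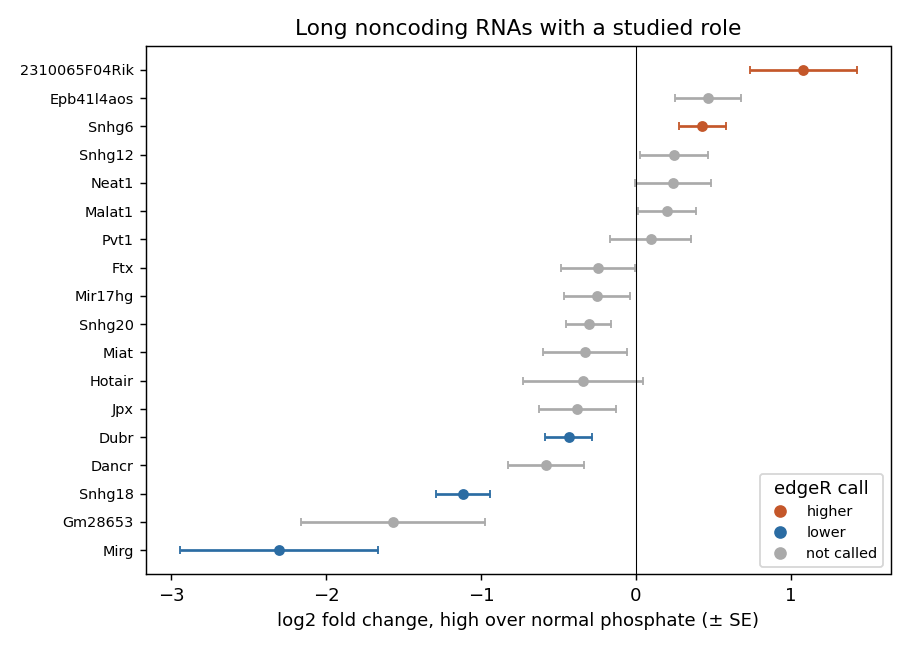
Log2 fold change (high over normal phosphate) of the 18 members on the 4 lists of long noncoding RNAs with a studied role; points are edgeR estimates and bars 1 SE to each side, orange called higher, blue lower, grey not called. Only linc-MYH (2310065F04Rik) and Snhg6 are orange, Mirg, Snhg18 and Dubr are blue, and Gm28653 at -1.57 has a bar of 0.59.

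Members that lie near a protein-coding gene were compared with that gene. For 196 members the nearest protein-coding gene was also tested, and across these pairs, which are not independent replicates and share the libraries and their scaling, Pearson's r of the log2 fold changes was 0.25 (Spearman's rho 0.26). It was 0.55 for 51 pairs with overlapping gene bodies, 0.39 for 85 pairs from 1 base to 5 kb apart and -0.047 for 60 pairs further apart. Pairs at most 5 kb apart in which the member shares no exonic base with any gene numbered 79, with r = 0.44. In 15 of these both genes were called, and in 13 of the 15 in the same direction. For all 136 pairs at most 5 kb apart the signs matched in 61.0%, and in 73.5% by FPKM and 75.0% by library size alone, where the median of all genes was also below 0. The 60 pairs further apart matched in 56.7%, so the share of matching signs differed little with distance. In 9 of these 60 both genes were called, and in 3 of the 9 in the same direction.

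**Figure D5:**
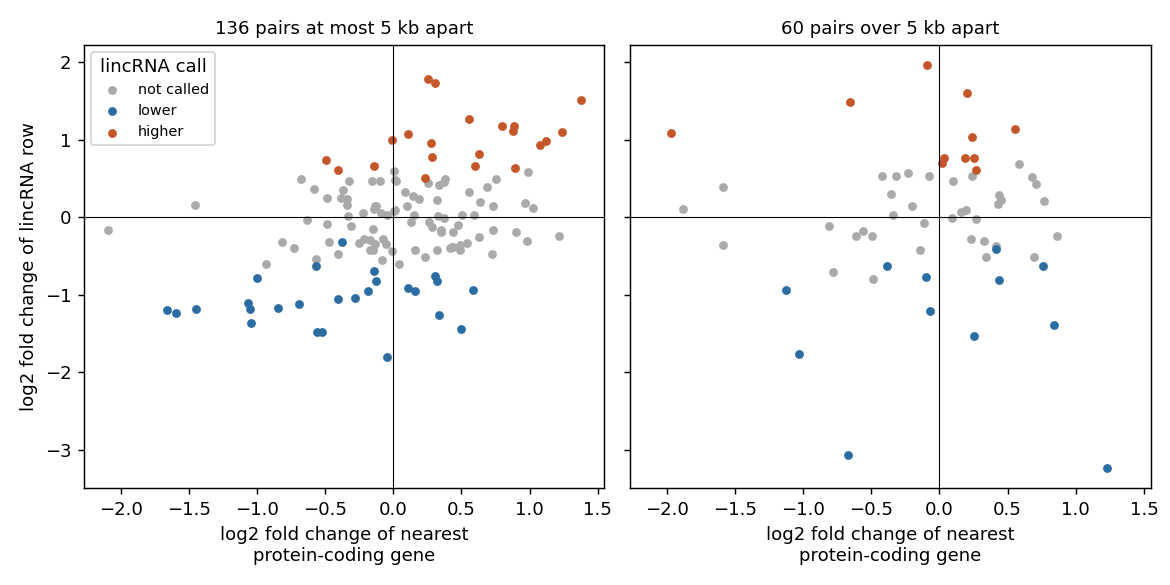
Log2 fold change of each member against that of its nearest tested protein-coding gene, for 136 pairs at most 5 kb apart (left) and 60 pairs further apart (right); points are coloured by the call of the member. At the left the blue points reach to the lower left and the orange points to the upper right, while no such slope is seen at the right (r = -0.047).

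Pairs with starts within 1 kb on opposite strands numbered 40 (r = 0.34, rho 0.22). The signs matched in 22 of the 40 (55%), and in 7 of the 8 pairs in which both genes were called. Gm17586 starts 168 bases from Mafg, a small Maf transcription factor: the member had 1.88, 1.70 and 2.49 against 5.36, 3.62 and 4.78 CPM, and Mafg rose from 58.7 ± 3.76 to 102 ± 2.60 CPM (SD, n = 3 per diet). 2810032G03Rik lies 188 bases from Klhl29, which rose by 0.55 ± 0.14. Snhg18 lies 148 bases from Sema5a, a semaphorin gene, which fell by 0.69 ± 0.17 beside -1.12 ± 0.18 for the member. The 2 of the 15 pairs named above that went opposite ways were 4933404O12Rik (0.74 ± 0.23) with Ift22 (-0.50 ± 0.15) and Gm43254 (-1.44 ± 0.30) with Ppa2 (0.50 ± 0.12), named after their values were seen. The call for 4933404O12Rik was lost without the first NP (0.60), the first HP (0.66) or the third HP (0.76) library, by library size alone (0.25) and from FPKM (0.11), and Gm43254 entered through the NP libraries only.

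The promoters of Gm17586 and Snhg18 are shown as examples of such divergent starts, 1 from a rising and 1 from a falling pair (RefSeq GRCm38.p6, 5′ to 3′ on the strand of the member). They span chr11:120633500-120633799 on the plus strand and chr15:32244613-32244912 on the minus strand, with 69.7% and 75.3% G and C, against 57.3% for Prr33 and 46.7% for linc-MYH. Neither holds any of the 3 motifs searched, so no letters are in capitals.
Gm17586: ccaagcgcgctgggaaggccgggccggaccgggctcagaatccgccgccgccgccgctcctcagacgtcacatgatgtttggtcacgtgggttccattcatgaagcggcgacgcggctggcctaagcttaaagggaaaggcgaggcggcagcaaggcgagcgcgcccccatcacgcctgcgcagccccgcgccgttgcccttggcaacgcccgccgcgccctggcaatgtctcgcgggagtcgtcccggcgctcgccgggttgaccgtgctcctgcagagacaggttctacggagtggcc
Snhg18: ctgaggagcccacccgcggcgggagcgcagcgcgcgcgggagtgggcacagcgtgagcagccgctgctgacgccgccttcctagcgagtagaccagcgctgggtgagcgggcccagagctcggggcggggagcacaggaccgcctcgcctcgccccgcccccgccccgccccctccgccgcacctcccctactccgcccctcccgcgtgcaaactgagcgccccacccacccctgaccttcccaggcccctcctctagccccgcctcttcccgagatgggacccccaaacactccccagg

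AW112010 and Carmn, which fell, are known from cells other than muscle fibres, and Halr1, which also fell, lies in a Hox cluster. All were named after their values were seen and from no fixed list, so they do not show how such members behave as a set. AW112010, an RNA of immune cells, had 33.6, 36.4 and 25.7 CPM on the normal and 23.0, 21.1 and 17.4 CPM on the high phosphate diet (-0.64 ± 0.15, edgeR adjusted p = 0.00861). Carmn, an RNA of smooth muscle and heart, had 1.49, 1.45 and 1.94 against 0.825, 0.713 and 1.04 CPM (-0.92 ± 0.28), and Halr1, from the HoxA cluster, 1.92, 1.20 and 1.57 against 0.458, 0.815 and 0.467 CPM (-1.43 ± 0.34). AW112010 did not overlap between the diets; Carmn and Halr1 entered through the NP libraries only, so that for them a decrease was built into the choice. The Carmn call (edgeR adjusted p = 0.0212) was lost without the third NP (-0.78), the first HP (-0.88) or the second HP (-0.79) library. Hotair, a member from the HoxC cluster, was not called (-0.34 ± 0.39).

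Markers of other cells moved with the diets as well. The summed level of 7 white adipocyte markers was 2340.0 to 2976 CPM on the normal and 552 to 952 CPM on the high phosphate diet, with 7 of 7 called lower. Fibroblast markers (6 of 6 lower) went from a range of 4228 to 10070 CPM, highest in the second NP library, to 2143 to 2376 CPM. Macrophage markers (5 of 6 lower, 1 higher) summed to 307 to 574 and 158 to 223 CPM, and endothelial markers (5 of 5 lower) to 643 to 778 and 381 to 532 CPM. Schwann cell markers (0 of 5 called) overlapped, at 144 to 186 and 153 to 247 CPM. Muscle fibre markers rose in 6 of 8 cases and fell in 1, and no defining marker of any list was at 0 in every library. The part of these shifts in the members' changes was not tested.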

How the data were processed

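Gastrocnemius RNA-seq of 3 normal and 3 high phosphate libraries, grouped by the sample labels, was analysed from the whole-number counts per gene that the authors deposited, and levels per length from the FPKM values that the authors deposited. The submitters' processing notes list featureCounts 1.4.6, HISAT2 2.0.1, DESeq2 1.6.3, Trim Galore 0.4.1 and the build GRCm38, without roles; annotation release and strand setting: not given in the sources used here. Total counts were 21856006 to 27474251 per library. Libraries of 1 diet correlated at 0.981 to 0.989 and their counts differed by chi-square values of 18.3 to 60.4 per degree of freedom; none was a copy of another.

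Counts were fitted with edgeR 4.0.16 (R 4.3.3): TMM, filterByExpr, robust quasi-likelihood F test by diet, Benjamini-Hochberg adjustment over 15347 genes, called at 0.05. A run on simulated counts, with few genes changed and equally in both directions, did not test the scaling. SE is the log2 fold change divided by the square root of F. DESeq2 1.42.0 and limma 3.58.1 (voom, and log2(FPKM + 1) or log2(FPKM + 0.1), a scale that understates changes of low genes) were alternatives, as were scaling, filter, block and single-library omissions. The members and lists were chosen with earlier results of these data known. Named were the 8 most abundant members, the 8 largest changes in each direction among called members without overlap, and all members on 4 function lists; members named outside this rule are marked. Positions come from GENCODE M21 (GRCm38) and sequences from RefSeq (GRCm38.p6). Wilson intervals cover counting error only.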

Additional observations from a re-analysis of the deposited data

How the results depend on the processing

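The counts of 39 members higher and 45 lower moved with the scaling, the unit and the definition of the members. Scaled by library size alone, 14 of the 244 members were higher and 108 lower, beside 5.72% and 51.4% of all genes tested. With log2(FPKM + 1) they were 10 and 76, beside 4.72% and 36.8% of all genes. With log2(FPKM + 0.1) they were 12 and 75, beside 4.85% and 39.0%. The shift to lower calls was thus seen over the whole table. Stricter definitions left fewer by construction: 19 higher and 14 lower with 5 CPM in 3 libraries, 16 and 26 with at least 2-fold, 24 and 29 among members sharing no exonic base (chosen after seeing the data), and 18 lower among those at 1 CPM in all 6 libraries. Without single libraries the counts ranged from 28 to 36 higher and from 32 to 42 lower. Size factors, the low-count filters, DESeq2, limma-voom, a looser threshold and the members that are lincRNAs in GENCODE M21 (also chosen after seeing the data) stayed within 1.5 times of both counts. In all settings on counts, 14 of the 39 and 27 of the 45 calls were kept. Library size alone kept 14 of the 39 higher and all 45 lower calls. The fits without single libraries kept 26 to 34 of the higher and 30 to 42 of the lower calls.

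The same-sign share of neighbours at most 5 kb apart was 75.0% by library size alone, 73.5% with either FPKM scale and 58.1% to 61.8% without single libraries. Of 690 values for 46 named members, 596 kept their direction and side of the threshold, 52 lost the call, 20 gained it and 22 changed sign. By library size alone the sign turned for Neat1 (-0.24), 1700020I14Rik (-0.085), Malat1 (-0.27), Snhg6 (-0.030), Snhg12 (-0.22) and Pvt1 (-0.38). With FPKM plus 1 and plus 0.1 it turned for Neat1 (-0.31, -0.32), Malat1 (-0.68, -0.68), Gm28933 (-0.0034, -0.0035), Snhg6 (-0.0053, -0.0058), Snhg12 (-0.23, -0.26) and Pvt1 (-0.57, -1.93). Without single libraries the values ran from -0.046 to 0.43 for Neat1, from -0.045 to 0.42 for Snhg12, from -0.048 to 0.31 for Pvt1 and from -0.75 to 0.035 for Hotair. The cause was not tested.

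With the replicate number as a block, 41 members were higher and 44 lower, and of the named members Snhg6 lost its call (0.43). Deviations of same-numbered libraries correlated at -0.021, 0.022 and 0.019 across genes, and those of differently numbered libraries at -0.045 to 0.026. No pairing by number was seen, though 3 libraries per diet cannot exclude a weak one. At 1 CPM a library held only 21.9 to 27.5 counts, which limits the precision for the 95 members under a mean of 2 CPM.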
